A study of Mus musculus with 11 samples.

Results

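The microRNA miR-22 was followed on 11 arrays, 8 from normal mammary glands of 3 mouse strains and 3 from mammary tumors. Its members are the 4 plus-strand spots of each array whose description holds mmu-miR-22 and no longer name, out of 1336 mouse spots for 334 miRNAs. miR-22 was selected on its green signals in these glands and tumors, which were already known, so its levels in that channel are given as a description, with errors but without tests. The glands came from pregnant females, harvested late in gestation by the study's methods, of the strains FVB (2 arrays), Balbc (3 arrays) and FVB129B6 (3 arrays), and none is labelled with a transgene or a treatment. The C3TAg tumors (3 arrays), C3(1)/Tag in the study's spelling, are primary tumors of female mice labelled as strain FVB, in which the C3(1) promoter drives the SV40 large T and small t antigens. Their age, and that of the mothers, was not given in the sources used here. RNA was taken from whole tissue, so fewer cells of a type and less miRNA per cell cannot be told apart. The titles of 2 of the Balbc arrays could name the left and right gland of 1 mouse.

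A miRNA guides the silencing complex to messenger RNAs that pair with its seed, the bases near its 5′ end, and lowers their translation and stability. miR-22 is a strongly conserved miRNA that is processed from a non-coding host transcript and is found in most tissues, with high levels in heart and skeletal muscle and a known rise in maturing red cells. Its described targets include the messenger RNAs of estrogen receptor alpha (Esr1) and the DNA demethylase Tet2, and in breast cancer it has been described both as a repressor and as a promoter of tumor growth.

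The sequences show which of the products of the miR-22 hairpin the array read. In the RefSeq table (build GRCm38.p6) the hairpin Mir22 lies on chromosome 11 from 75463716 to 75463810, plus strand, within the span of the long non-coding RNA gene Mir22hg (75461539 to 75466690), and both mature arms are listed inside it (chr11:75463734-75463755 for the 5p arm and chr11:75463772-75463793 for the 3p arm). In the hairpin, capitals mark the 3p arm. In the mature forms, capitals mark the seed (bases 2 to 8), and in the probe, the bases opposite the seed of the 3p arm.
Mir22 hairpin: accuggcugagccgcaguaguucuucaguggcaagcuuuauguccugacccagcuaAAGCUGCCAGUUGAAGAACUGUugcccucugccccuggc
mmu-miR-22-3p: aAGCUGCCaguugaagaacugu
mmu-miR-22-5p: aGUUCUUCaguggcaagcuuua
probe of mmu-miR-22, first 22 bases: acagttcttcaactGGCAGCTt
All 22 of these probe bases were complementary to the 3p arm, so the values below are taken as those of miR-22-3p, and the 5p arm was not measured. Probe sequences were read from the tumor scans, and the gland scans, which carry the same probe name at every spot, were taken to hold the same probes. No other mature mouse miRNA in the RefSeq table carried the seed AGCUGCC. Of the 334 probes, 270 held the complement of the first 18 bases of a RefSeq miRNA, and none of the other 269 shared the seed. The closest other probes, those of miR-29c, miR-302d, miR-409 and miR-485-5p, lay 9 base edits away over the whole probe. The complement GGCAGCT of the seed occurred in 1 other probe, that of the erythroid miR-486, which lay 15 edits from the miR-22 probe.

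On the gland arrays 209 to 262 of the 334 miRNAs were detected, and on the tumor arrays 15 to 64. A miRNA was counted as detected on an array where the scanner program called at least 50% of its spots well above background. All gland arrays lay on 1 slide and all tumor arrays on another, extracted with another version of the program and scanned without the extended dynamic range. Group and slide therefore cannot be told apart for tumors against glands. All 7 epithelial miRNAs of the list and miR-148a, which is abundant in secretory mammary epithelium, were detected on the 8 gland arrays, as were 204 of all 334 miRNAs (61.1%), so the defining markers of the labelled tissue were present but not particular to it. In the tumors 4 of these 7 were detected on at least 1 array, and miR-205 was on all 3.

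miR-22 gave a bright signal in every gland. All 32 gland spots were well above background, none was marked as an outlier or saturated, and their median pixel signals of 7444.5 to 16369.5 stood over a local background of 48 to 55. The mean over the array was 99.0 to 173 times the median of the negative control spots. Averaged over its 4 spots, the processed green signal (background subtracted and dye normalized) was 81150 and 48325 on the FVB arrays. It was 91000, 83150 and 66800 on the Balbc arrays and 44225, 78400 and 56475 on the FVB129B6 arrays, so these unscaled signals overlapped between all 3 strains. The 4 spots agreed closely, with coefficients of variation of 1.82% to 6.89% in the glands, beside medians of 4.63% to 6.60% for all miRNAs detected on the same arrays. The spot printed at feature 11690 was the brightest of the 4 on 6 of the 8 gland arrays and the dimmest on 1. Averaged over all 8, it lay 0.064 on the log2 scale above the mean of the spots. The spread between spots was thus far smaller than the spread between arrays of 1 strain, which reached 1.77-fold in FVB129B6 and 1.68-fold in FVB.

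**Figure D1:**
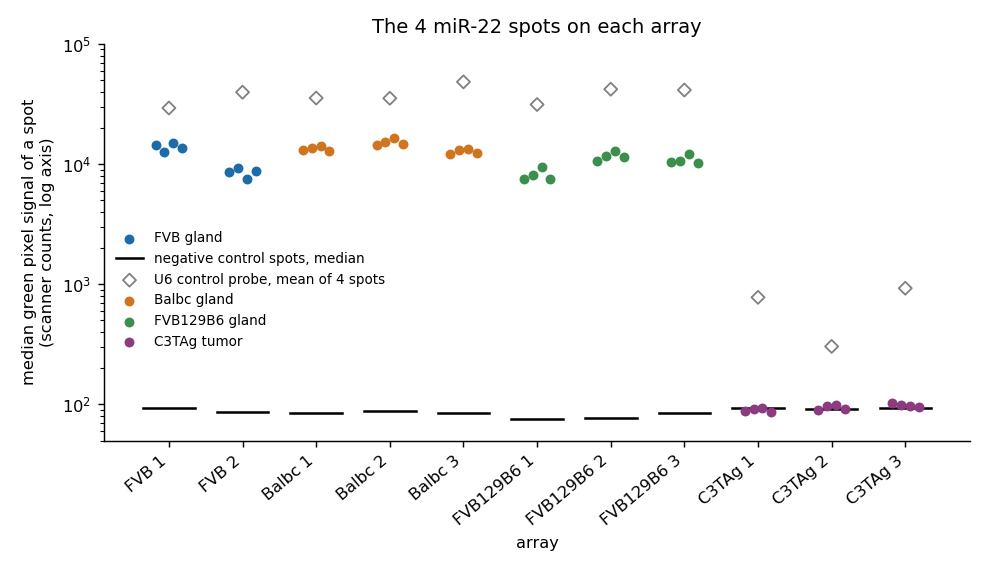
Median green pixel signal of each of the 4 miR-22 spots (filled points, log axis, scanner counts) on each of the 11 arrays, colored by group, with the median of the negative control spots (black line) and the mean of the 4 spots of a U6 control probe (open diamond). The gland spots lie between 7444.5 and 16369.5 and the tumor spots between 86.5 and 102, at the line of the negative controls.

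After each array was centered on its median, the level of miR-22 was highest in FVB, followed by Balbc and then FVB129B6. The level is the log2 green signal less the median of that array's 1336 mouse spots, so that 0 is the median spot. The FVB arrays had levels of 8.37 and 8.00, with a mean of 8.18 ± 0.26 (SD, n = 2). The Balbc arrays had 7.29, 7.35 and 6.90, with a mean of 7.18 ± 0.24 (SD, n = 3). The FVB129B6 arrays had 6.41, 6.86 and 6.72, with a mean of 6.66 ± 0.23 (SD, n = 3). No array of one strain overlapped with those of another on this scale, although the lowest Balbc array lay only just above the highest FVB129B6 array.

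The log2 difference from FVB was -1.003 (standard error 0.31) in Balbc and -1.52 (standard error 0.31) in FVB129B6, where the standard error comes from the SD pooled over the 4 groups. Between Balbc and FVB129B6 the difference was 0.52 (standard error 0.28). The pooled SD includes the tumors, whose values lay at background; with the SD within the 3 strains alone the standard errors were 0.22, 0.22 and 0.20. Such separations were common on this scale. Of the 261 miRNAs detected in 3 or more glands, 118 (45.2%) had every FVB array above every Balbc array, and 128 (49%) had every FVB array above every FVB129B6 array. Balbc lay wholly above FVB129B6 for 37 of them (14.2%), and the full order of miR-22, FVB above Balbc above FVB129B6 with no overlap, was shared by 14 (5.36%). The 1.52 between its highest and lowest strain means was exceeded by 30 of the 204 miRNAs that were detected in all 8 glands, whose median range was 0.76.

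The size of these differences, and for FVB against Balbc the direction, depended on how the arrays were scaled. The FVB arrays were dimmer as a whole, with median spot signals of 188.5 and 245.5 against 508 to 671.5 in the other strains, so that without scaling the median miRNA was higher than in FVB by 0.87 in Balbc and by 1.02 in FVB129B6. Against that median miRNA, a comparison which a factor common to 1 array cannot change, miR-22 was lower than in FVB by 0.52 in Balbc and by 1.13 in FVB129B6, and it was higher in Balbc than in FVB129B6 by 0.49. Another background correction, normexp, left -0.19, -0.75 and 0.46 of these, and green over red left -0.34, -0.79 and 0.40. For the difference of Balbc from FVB, 46 of the 261 miRNAs lay lower than miR-22, for FVB129B6 from FVB 22 did, and for Balbc from FVB129B6 227 did. With no scaling the log2 difference between Balbc and FVB turned to 0.35, and with the array's U6 probe as the scale, an alternative chosen after the data were seen, to 0.19. The difference between FVB129B6 and FVB shrank to -0.11 and -0.14 in the same 2 settings. FVB stood wholly above Balbc under 3 of 8 scalings, FVB wholly above FVB129B6 under 6 of 8, and Balbc wholly above FVB129B6 under 3 of 8. Relative to U6, a small nuclear RNA used as a loading control, the miR-22 signal was 44.8% and 20.9% in FVB, 26.7% to 41.6% in Balbc and 27.0% to 28.5% in FVB129B6, so the FVB pair spanned the other strains. The 2 FVB arrays also shared column 4 of the slide, which no other strain held. The Balbc arrays lay in columns 2, 3 and 3 and the FVB129B6 arrays in columns 1, 1 and 2. The order of the strain means thus ran with the column, and FVB cannot be told apart from its column. Balbc and FVB129B6 shared only column 2, with levels of 7.29 on the Balbc array and 6.72 on the FVB129B6 array there. Strain and column are thus hard to tell apart for these strains too.

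**Figure D2:**
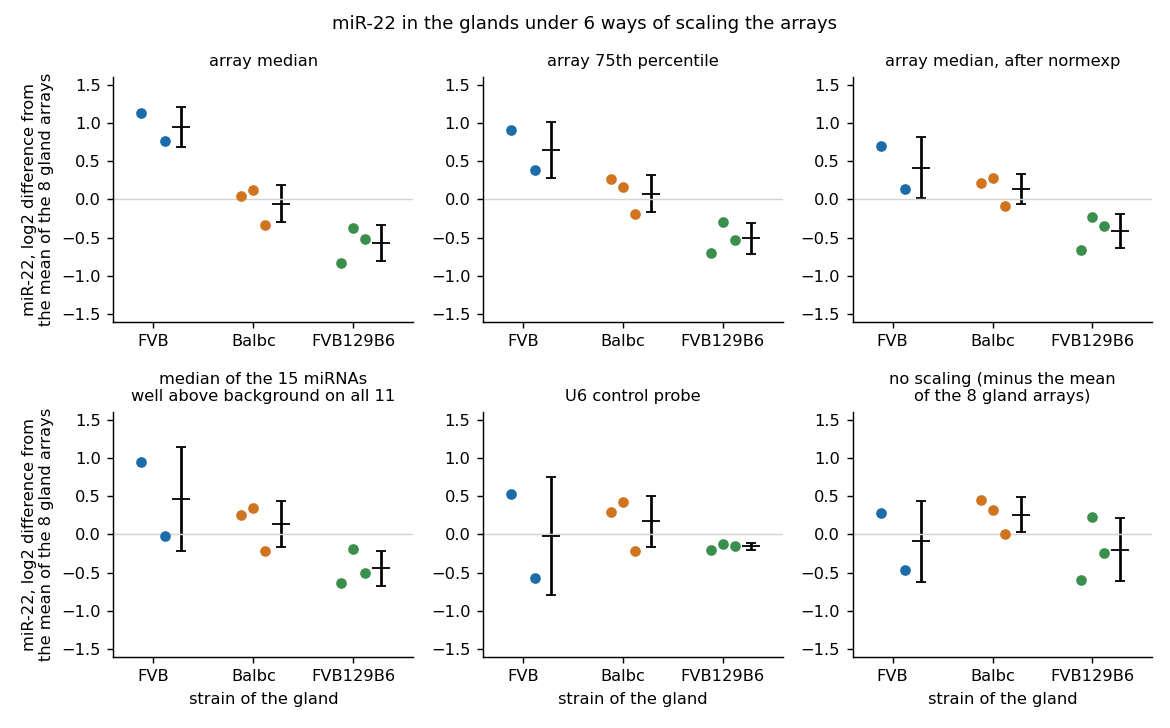
miR-22 in the 8 glands under 6 ways of scaling the arrays, as the log2 difference from the mean of the 8 gland arrays, with one point per array and the mean ± SD of each strain beside it (n = 2 for FVB, n = 3 for the others). The FVB points lie above the others with the array median or the 75th percentile and spread across the other strains with the U6 probe or no scaling.

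Markers of other cell types moved with the strains. The erythroid list held miR-451 and miR-144, processed from one cluster and abundant in red cells, and miR-486. On the array-median scale, the only one given for the lists, the strain means of all 3 ran in the order of miR-22. All 3 were detected in all 8 glands, and their summed level was 9.53 to 9.61 in FVB, 7.67 to 8.72 in Balbc and 6.83 to 7.39 in FVB129B6. For miR-451 the FVB mean was 9.53 ± 0.05 (SD, n = 2), the Balbc mean 8.15 ± 0.53 (SD, n = 3) and the FVB129B6 mean 6.95 ± 0.33 (SD, n = 3). Over the 8 gland arrays, which share a slide and the array median as scale, the Pearson correlation with miR-22 was 0.95 for miR-451, 0.85 for miR-144 and 0.81 for miR-486. The part of red cells in the miR-22 difference was not tested.

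The skeletal muscle list ran the other way from miR-22 in FVB. Its 4 measured members, miR-1, miR-133a*, miR-133b and miR-206 (miR-133a had no spots of that name), were detected in all 8 glands. Their summed level was 3.71 to 6.10 in FVB, 9.24 to 10.03 in Balbc and 8.52 to 8.69 in FVB129B6, and their correlations with miR-22 over the 8 arrays ran from -0.82 to -0.71. On this scale miR-22 was highest in FVB, where the muscle miRNAs were lowest. Between Balbc and FVB129B6 all 4 ran the same way as miR-22, as in miR-1 with means of 8.54 and 7.37. The negative correlations thus reflect the FVB arrays. The epithelial list had summed levels of 8.77 to 9.80 in FVB, 8.06 to 8.94 in Balbc and 8.90 to 9.27 in FVB129B6, and the stromal list (miR-143, miR-145, miR-199a, miR-214) 9.57 to 10.21, 9.12 to 9.54 and 9.18 to 9.43. Of the lymphoid and myeloid list, 4 of 5 were on the array, with summed levels of 5.93 to 6.16, 5.27 to 8.40 and 5.33 to 5.68. The second Balbc array set the top of its range, with levels of 6.90 for miR-150 and 7.57 for miR-142-5p against 2.48 and 3.78 on the first and 2.21 and 3.85 on the third. Without it, the miR-22 difference was -1.09 between Balbc and FVB and 0.43 between Balbc and FVB129B6. Of the endothelial pair only miR-126-5p was on the array, and it was detected in 6 of the 8 glands. The part of these cells in the differences of miR-22 was not tested.

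**Figure D3:**
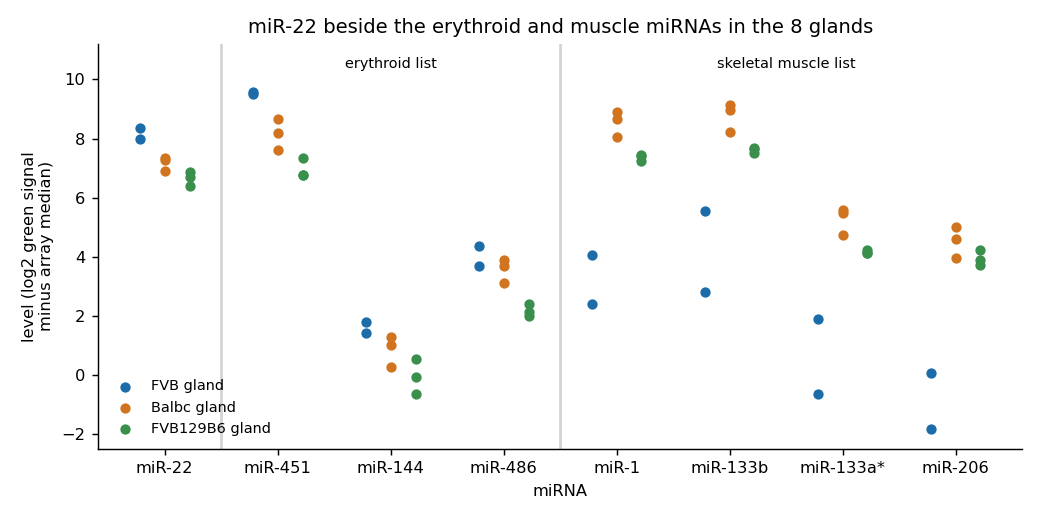
Level (log2 green signal minus array median) of miR-22, the 3 erythroid miRNAs and the 4 skeletal muscle miRNAs on the 8 gland arrays, one point per array, colored by strain. Only strains within a miRNA are comparable, since probes differ in brightness; FVB has the highest mean for miR-22 and the erythroid miRNAs, although its lower array falls among the Balbc arrays for miR-486, and both FVB points lie below the other strains for the muscle miRNAs.

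Within the glands miR-22 was among the brightest probes. Ranked by mean green signal over the 334 miRNAs, it stood at 7 and 15 in FVB, at 18, 19 and 25 in Balbc and at 33, 21 and 28 in FVB129B6. The median rank was 20, and 90.4% to 98.2% of the other miRNAs were dimmer. Taken as single spots among 1336, its best spot ranked 25 (an FVB array) and its worst 139 (an FVB129B6 array). The rank is one of probe signals, not of amounts of RNA, but it does not change with the scale of an array. By median rank over the 8 glands, miR-16 (18.5) came next above, miR-30c shared the median of 20 and miR-30a-5p (21) came next below.

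**Figure D4:**
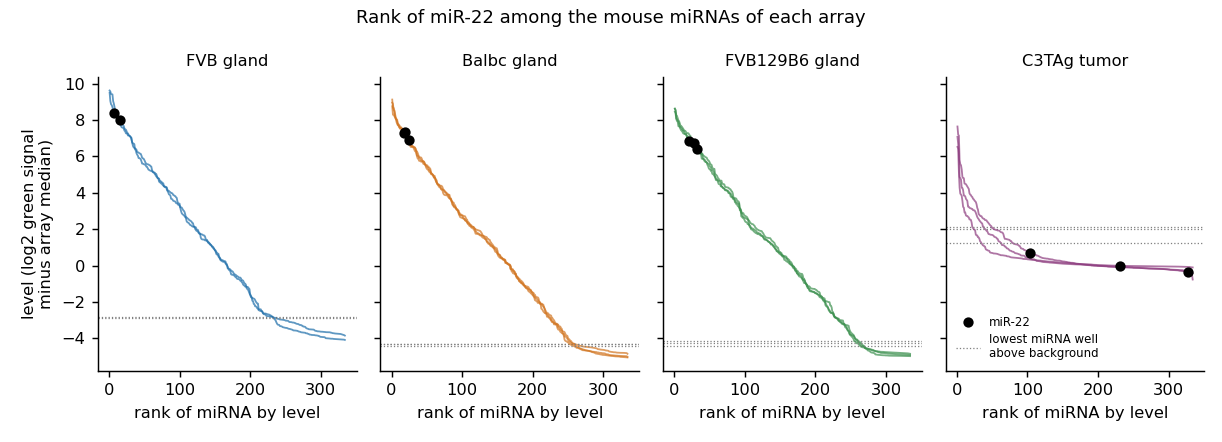
Levels of all 334 miRNAs in order of rank (lines, one per array) with miR-22 marked (black points) and the dimmest detected miRNA of each array (dotted lines). In the glands miR-22 ranks between 7 and 33, and in the tumors it lies below the dotted lines on all 3 arrays.

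In the C3TAg tumors miR-22 was not detected on any array. Of the 12 tumor spots none was called well above background, with median pixel signals of 86.5 to 102 over a local background of 49 to 52. The mean of the 4 spots was 0.962, 1.03 and 1.05 times the median of the negative controls on tumor arrays 1 to 3, so the spots lay at the level of probes that match no miRNA. On the first and second arrays all 8 spots carried a substitute value set by the program. The 4 spots of the third were called significant by the program but not well above background. The processed means were 136, 139 and 200, and the levels of -0.34, -0.01 and 0.67 (mean 0.11 ± 0.52, SD, n = 3) give no order among the tumors. The ranks of 327, 231 and 103 among 334 likewise order values without a signal.

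Because no tumor array detected miR-22 in green, its difference is given as a bound. Each tumor array was set to the level of its dimmest detected miRNA, which was 2.02, 2.13 and 1.23. Against the mean of the 3 strain means, 7.34, miR-22 was at least 46.7-fold lower in the tumors, and against the FVB glands, the strain of the tumors, at least 83.7-fold lower. On the same arrays 1, 7 and 15 other miRNAs lay above that level without being detected, so the bound does not hold for every probe. With each tumor array set instead to its brightest miRNA that was not detected (2.13, 3.23 and 2.16), a setting chosen after the data were seen, the bounds were at least 28.5-fold and at least 51.1-fold. The measured means differed by -7.24 (standard error 0.23) and -8.08 (standard error 0.31) on the log2 scale, but these sizes rest on background. Every gland array lay above every tumor array, as it did for 121 of 261 miRNAs (46.4%). Of the 204 miRNAs detected in all 8 glands, 142 were detected on no tumor array, and the bound of miR-22 was the eighth of these in size, beside a median of 1.05-fold and a highest of 121-fold (miR-143). Most of their tumor values were set to the same level of each array. This order therefore largely repeats the brightness in the glands, on which miR-22 was selected, and does not rank losses in the tumors. The bound of miR-22 followed the scale. It was at least 4.61-fold against the 3 strains with quantile normalization, 5.94-fold with the 75th percentile, 8.08-fold with the 15 miRNAs detected on all 11 arrays and 132-fold without scaling. miR-22 was lower in the tumors under each of these.

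The U6 control probe was dimmer on the tumor arrays as well. It was well above background on all 4 spots of every array, but its median pixel signal averaged 304 to 926 in the tumors and 29298 to 48373 in the glands, or 3.34 to 9.86 and 312 to 569 times the negative controls. With the U6 probe as scale, miR-22 was at least 13.0-fold lower in the tumors than in the 3 strains and at least 12.8-fold lower than in FVB. As a share of the U6 signal, the background-level tumor spots read 0.443% to 1.12% and the gland spots 20.9% to 44.8%. Among the marker lists, none of the 3 erythroid miRNAs and not miR-148a was detected in the tumors, with summed erythroid levels of 1.73 to 2.19. The epithelial sum was 4.26 to 4.68 and the stromal sum, with 2 of 4 members detected on some tumor array, 3.35 to 4.39. The part of these cells, and of the dimmer arrays, in the low miR-22 signal was not tested. Random-sequence control probes read 91.2 to 95.7 on the tumor arrays and 79.9 to 99.0 on the gland arrays.

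The other miRNAs known to act on estrogen receptor alpha are given beside miR-22. They reach the messenger RNA through other seeds, of which miR-221 and miR-222 share one, as their RefSeq sequences show with the seed in capitals.
mmu-miR-18a-5p (probe miR-18): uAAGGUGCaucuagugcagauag
mmu-miR-206-3p (probe miR-206): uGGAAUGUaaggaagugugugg
mmu-miR-221-3p (probe miR-221): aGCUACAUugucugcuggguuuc
mmu-miR-222-3p (probe miR-222): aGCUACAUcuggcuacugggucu
All 4 were detected in the 8 glands, and no spots carried the names miR-18a or miR-18b. miR-221 was also detected on all 3 tumor arrays. Its tumor mean was 4.66 ± 0.75 (SD, n = 3), beside gland means of 3.84 ± 0.40 for FVB (SD, n = 2), 3.36 ± 0.14 for Balbc (SD, n = 3) and 3.51 ± 0.15 for FVB129B6 (SD, n = 3). miR-222, encoded beside it on chromosome X, was detected on 2 tumor arrays, with 3.56 ± 0.98 (SD, n = 3) in the tumors and 2.70, 1.87 and 1.88 in the strains. These levels are relative to the median spot signal, which was 125 to 170 on the tumor arrays and 188.5 to 671.5 on the gland arrays. A higher level in the tumors is thus not necessarily a higher signal, and only this scale is given for miR-221 and miR-222. miR-18, of the miR-17-92 cluster, was detected on no tumor array. On this scale it was at least 3.65-fold lower there, with levels of 3.58 in FVB, 3.50 in Balbc and 3.91 in FVB129B6. For miR-22 the log2 bound against the 3 strains shrank from -5.55 to -2.57 with the 75th percentile. No such scale is given for miR-18, so whether it was lower under another scale is not shown. miR-206, a muscle miRNA, was detected on 1 tumor array, and its level was -0.89 in FVB, 4.51 in Balbc and 3.93 in FVB129B6, so it was lowest in the strain where miR-22 was highest. Whether any of these differs from miR-22 beyond the replicate spread was not tested.

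Some other miRNAs followed the pattern of miR-22 over the glands. Among the 203 other miRNAs detected in all 8 glands, the highest Pearson correlations of levels were those of miR-700 (0.96), miR-151 (0.95), miR-451 (0.95), miR-186 (0.95) and miR-132 (0.95), beside a median of 0.55 over all 203. All of them had the order FVB, Balbc, FVB129B6 in their means, as in miR-186 with 1.74, 0.74 and 0.38. With the strain means taken out, the highest were miR-139 (0.86), miR-30c (0.79), miR-378 (0.79), miR-132 (0.75) and miR-700 (0.75), beside a median of -0.20. miR-132 and miR-700 were thus among the 5 highest by both measures. The 8 points share a slide and an array-wide scale, and 3 strain means fix most of the first measure. The SD of miR-22 within strains, 0.24, was close to the median of 0.26 over the 204 miRNAs.

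The red channel held a miR-22 signal in the glands too. All 32 gland spots were well above background in red, with processed array means of 57325 to 112750, and 4 of the 12 tumor spots were, with means of 219.5 to 709. They were 2 spots on the first tumor array, which by the 50% rule detected miR-22 in red, and 1 on each of the others. Centered on the array's median red signal, the level was 6.76 ± 0.0049 (SD, n = 2) in FVB, 6.63 ± 0.12 (SD, n = 3) in Balbc and 6.34 ± 0.08 (SD, n = 3) in FVB129B6. The strain means had the same order as in green but lay closer together. Of the 32 gland spots, 24 had a red value scaled up from a scan at a lower detector setting, against 0 in green. Every FVB spot was among them, but not every spot of Balbc or FVB129B6, so the red levels mix scan settings that differ between strains. The green signal was 1.25 and 0.843 times the red in FVB, 0.678 to 0.990 times in Balbc and 0.578 to 0.695 times in FVB129B6. The labels name only the green dye, Hy3. The study's methods name Hy3 and/or Hy5 as the label of total RNA, but which RNA the red channel of these arrays held was not given.

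**Figure D5:**
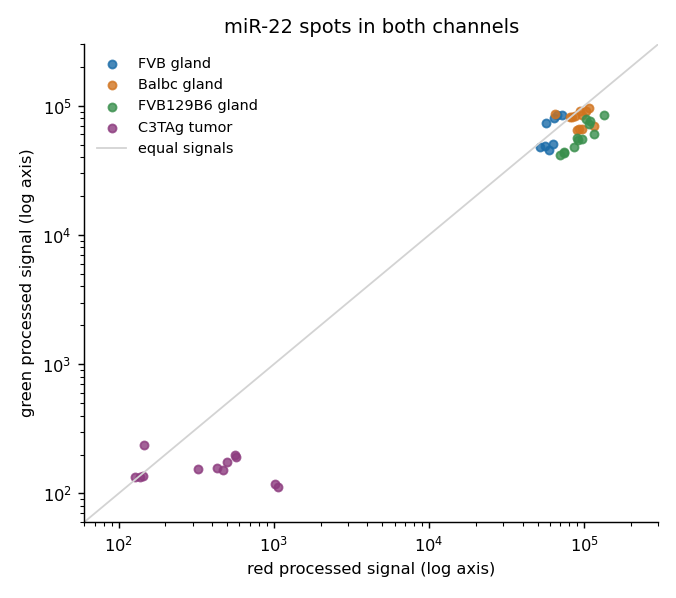
Processed green against processed red signal of the 4 miR-22 spots on each array (log axes), colored by group, with the line of equal signals. The gland spots form one cloud near the line, from 41500 to 95500 in green, and the tumor spots lie between 113 and 236 in green.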

How the data were processed

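Total RNA was labelled at the 3′ end and hybridized to a custom Agilent array, and 11 scans were deposited. For each, the authors deposited the spot intensity in green and red, background subtracted and dye normalized by Feature Extraction (version 9.5.1.1 for tumors, 10.5.1.1 for glands), with quality flags and, in the tumor scans, a surrogate score for spots near background. The authors also deposited log2 values of the 1336 plus-strand mouse spots, which equal log2 green plus 1 constant per array (SD of the difference 0). The study's filter on detection calls was not repeated.

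Here, log2 green was centered on each array's median and averaged over the spots not marked as outliers. Levels were described with SDs over arrays, and no test was run on them. The number of arrays limits the precision, and no label says that arrays of a group came from separate mice. Shares of miRNAs without overlap between groups use the 261 miRNAs detected on 3 or more arrays of the comparison, a miRNA being detected where 50% of its spots or more were well above background. miRNAs named beside miR-22 are the 5 most correlated over the glands, the 5 most correlated within strains, the neighbors by rank, the probes with the fewest edits (4 tied), those of the estrogen receptor alpha list and of the cell-type lists. The members and lists were chosen with earlier results of these data known. The functions for levels, quantiles and overlap were tested on simulated data. Alternatives comprised other scalings (75th percentile, miRNAs detected on all 11, quantile, none), the deposited table, normexp (limma 3.58.1, R 4.3.3, offset 50, on median signals), outlier spots kept, the median spot, single spots, green over red, raised low signals, the 2 Balbc arrays of like title averaged, and each array left out. The U6 scale and the higher floor for the tumors were added after the data were seen. Python 3.11.15, numpy 2.4.6, pandas 2.3.3 and matplotlib 3.10.9 were used.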

Additional observations from a re-analysis of the deposited data

Results flagged for a closer look

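The red channel, which no comparison of the study uses, held miR-22 signal well above background on 32 of 32 gland spots and on 4 of 12 tumor spots. It is listed because it lies outside the reported measurement. Groups of 2 or 3 arrays are too small for the check of single arrays that stand apart, so none was made.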

How the results depend on the processing

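The strain differences and the tumor bounds depended mostly on the scale. For Balbc minus FVB (-1.003), the log2 difference became -0.57 with the 75th percentile, -0.33 with the 15 miRNAs detected on all 11, -0.64 with quantile normalization, -0.28 with normexp and -0.36 with green over red, and it reversed to 0.35 with no scaling and to 0.19 with the U6 probe, a setting chosen with the data in view. For FVB129B6 minus FVB (-1.52), the same 5 settings gave -1.16, -0.91, -1.11, -0.83 and -0.78, no scaling gave -0.11 and U6 gave -0.14. Balbc minus FVB129B6 (0.52) moved by less than the pooled SD of 0.34 in all 22 alternatives. For the tumors minus the 3 strains, the log2 bound of -5.55 became -2.57 with the 75th percentile, -3.01 with the 15 miRNAs, -2.21 with quantile normalization, -7.05 with no scaling, -6.16 with normexp and -3.70 with U6. For the tumors minus FVB, the bound of -6.39 became -3.15, -3.43, -2.79, -6.97 with no scaling and -3.68 with U6. With each tumor array set to its brightest miRNA not detected, also chosen with the data in view, the bounds were -4.83 and -5.68. The causes were not tested. Green over red gives no bound for the tumors. The median gland rank of 20 became 75.5 for single spots among 1336 and 173.5 by green over red, and the tumor rank of 231 became 953.5 for single spots. Leaving out each array gave -1.19 to -0.82 for Balbc minus FVB, -1.70 to -1.34 for FVB129B6 minus FVB, 0.39 to 0.66 for Balbc minus FVB129B6, -5.71 to -5.26 and -6.57 to -6.11 for the tumors, ranks of 19 to 21 and 167 to 279, and a median coefficient of variation over spots (6.60% on all 11 arrays) of 5.92% to 6.62%. Relative to the median miRNA, Balbc minus FVB (-0.52) became -0.19 with normexp and -0.34 with green over red, and FVB129B6 minus FVB (-1.13) became -0.75 and -0.79. Outlier spots kept, the median spot, single spots, raised low signals, averaged Balbc arrays and the deposited table moved no level difference or bound by the pooled SD. No paired analysis was made, because the labels pair no arrays between groups and no result comes from a test.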
